A study of Mus musculus with 2 samples.

Results

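The 10 genes described here encode subunits of the inner kinetochore and of the Ndc80 complex, the protein assembly that joins centromeric chromatin to spindle microtubules. They were taken by name, as the probe sets whose platform annotation gives exactly 1 gene symbol and whose symbol is Cenph, Cenpi, Cenpm, Cenpo, Cenpp, Cenpt, Cenpu, Cenpw, Spc24 or Spc25. The list of names was chosen with earlier results of these data known, so counts over it describe these genes and test nothing. All 10 were on the array, in 11 probe sets, among 7542 named genes. Expression was compared between D351 and D16, clones of mouse mesoangioblasts, progenitor cells of the vessel wall with mesodermal fates. Both were cloned from C57BL6 dorsal aorta at embryonic day 9.5, after 5 days as an explant, by limiting dilution over mouse embryonic fibroblasts treated with mitomycin C, in RPMI with 20% fetal calf serum, and were expanded on gelatin. The labels name no treatment or genotype that separates the clones, and each group is 1 clone. Total RNA of each clone went to 1 array, so no difference below could be set against a spread between replicate cultures, and no test was possible.

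The kinetochore is built on nucleosomes that carry the histone variant CENP-A. The constitutive centromere-associated network, made of the CENP-H/I/K/M, CENP-L/N, CENP-O/P/Q/R/U and CENP-T/W/S/X groups together with CENP-C, binds these nucleosomes and stays at centromeres through the cell cycle. It recruits the Ndc80 complex, in which Ndc80 and Nuf2 hold the microtubule while Spc24 and Spc25 form the end that faces the chromosome. Transcripts of many kinetochore genes are more abundant in dividing than in resting cells, and their promoters are known to be read by E2F proteins, by NF-Y at CCAAT boxes, and by the DREAM and MuvB complexes at an element called CHR.

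All 10 genes had lower signals in D351 than in D16 in the deposited values, although Cenpt turned slightly above 0 (log2 ratio 0.06) when the arrays were scaled on their hybridisation controls. The median log2 ratio of D351 over D16 was -1.00, which is 2.00-fold lower in D351, against a median of -0.01 over all 4922 genes with a ratio. Of the 10 members, 5 were at least 2-fold lower in D351 (Spc25, Cenph, Cenpm, Cenpu and Cenpw), 0 were at least 2-fold higher, and the other 5 were 1.38-fold to 1.83-fold lower. Over all genes with a ratio, 8.57% were at least 2-fold lower in D351, and 50.7% had a log2 ratio below 0. A 1.5-fold difference was passed by 9 of 10 members, against 20.4% of all genes, and a 3-fold difference by Spc25 alone, against 2.78%. Signals under 16.8, the pooled median of both arrays, were raised to that floor before ratios were taken. Each of the 10 genes was at or above the floor on both arrays, so their ratios are measured values and not bounds. The other centromere network genes on the array (Cenpq, Itgb3bp and Cenps), which are not members, were each under the floor in D351. Among the 4065 genes at or above the floor on both arrays, as the 10 members were, 8.44% were at least 2-fold lower in D351 and 51.3% lay below 0.

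The promoters of 6 members are shown, those of the 5 genes past 2-fold and that of Cenpt, which had the smallest difference. Spc25, Cenpm, Cenpw and Cenpu hold a searched motif before the gene start, and Cenph and Cenpt do not, nor do Cenpi, Cenpo and Cenpp, which are not printed. Each line gives the 250 bases before the annotated start, 5′ to 3′ on the strand of the gene, from RefSeq on build GRCm38.p6. Capitals mark matches to a CCAAT box (CCAAT), a CHR (TTTGAA or TTCGAA) or an E2F site (TTTCGCGC, TTTGGCGC or TTTCCCGC) on either strand.
Spc25 (chr2:69206214-69206463, minus strand): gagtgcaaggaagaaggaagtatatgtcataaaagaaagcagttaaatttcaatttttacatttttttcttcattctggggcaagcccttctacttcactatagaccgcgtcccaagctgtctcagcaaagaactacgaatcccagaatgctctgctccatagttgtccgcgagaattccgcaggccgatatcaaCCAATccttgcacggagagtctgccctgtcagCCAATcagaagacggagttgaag
Cenph (chr13:100775900-100776149, minus strand): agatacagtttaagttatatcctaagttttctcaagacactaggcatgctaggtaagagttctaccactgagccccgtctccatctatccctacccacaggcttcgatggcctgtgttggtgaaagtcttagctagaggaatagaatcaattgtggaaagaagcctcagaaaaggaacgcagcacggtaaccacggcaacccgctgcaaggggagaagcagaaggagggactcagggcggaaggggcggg
Cenpm (chr15:82244337-82244586, minus strand): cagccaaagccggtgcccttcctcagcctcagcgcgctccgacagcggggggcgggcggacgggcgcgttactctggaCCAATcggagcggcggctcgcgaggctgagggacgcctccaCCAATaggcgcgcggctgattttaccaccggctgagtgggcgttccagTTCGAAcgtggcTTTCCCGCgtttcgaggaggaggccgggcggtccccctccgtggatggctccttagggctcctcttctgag
Cenpw (chr10:30200541-30200790, minus strand): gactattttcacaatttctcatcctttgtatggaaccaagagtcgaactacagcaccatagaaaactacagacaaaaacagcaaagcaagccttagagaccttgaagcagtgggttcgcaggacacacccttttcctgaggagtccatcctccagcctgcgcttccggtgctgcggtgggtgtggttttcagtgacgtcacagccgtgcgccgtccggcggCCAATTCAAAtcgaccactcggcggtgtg
Cenpu (chr8:46551819-46552068, plus strand): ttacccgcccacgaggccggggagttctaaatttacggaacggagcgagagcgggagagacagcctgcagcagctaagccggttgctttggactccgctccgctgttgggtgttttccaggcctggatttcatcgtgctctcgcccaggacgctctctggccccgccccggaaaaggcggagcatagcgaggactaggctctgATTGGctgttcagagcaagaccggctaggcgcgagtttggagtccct
Cenpt (chr8:105852009-105852258, minus strand): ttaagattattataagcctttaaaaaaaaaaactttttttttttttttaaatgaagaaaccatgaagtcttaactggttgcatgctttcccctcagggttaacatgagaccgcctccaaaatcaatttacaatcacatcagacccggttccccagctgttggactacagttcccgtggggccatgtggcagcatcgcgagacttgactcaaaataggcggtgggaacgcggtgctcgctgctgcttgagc

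Among the CENP-H/I/K/M subunits, Cenph and Cenpm were past 2-fold and Cenpi was not. Cenph, whose protein is needed in human cells to bring new CENP-A to centromeres, read 131.9 signal units in D351 and 339.1 in D16. That is 2.57-fold lower in D351 (log2 ratio -1.36), on a probe set with the ending _f, a design that can also bind related transcripts. Cenpm, which encodes a protein folded like a small GTPase, read 28.0 in D351 and 66.2 in D16, or 2.36-fold lower (log2 -1.24). Cenpi, the partner of CENP-H in the same assembly, read 28.5 in D351 and 49.2 in D16, or 1.73-fold lower (log2 -0.79). The ratios of these 3 genes therefore spanned -1.36 to -0.79, with a median of -1.24.

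The CENP-O/P/Q/R/U group binds next to CENP-H/I/K/M, and 1 of its 3 members was past 2-fold. Cenpu, whose protein docks the mitotic kinase Plk1 at human kinetochores, read 18.7 in D351 and 41.8 in D16, or 2.24-fold lower (log2 -1.16). Its D351 signal lay just above the floor. Cenpp read 37.5 in D351 and 68.5 in D16, or 1.83-fold lower (log2 -0.87), the member nearest to 2-fold among those that did not reach it. Cenpo read 116.5 in D351 and 192.6 in D16 on its brighter probe set, or 1.65-fold lower (log2 -0.73). A further Cenpo probe set, of the _f design, read 12.5 in D351 and 11.7 in D16, under the floor on both arrays, and gave no ratio.

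CENP-T and CENP-W are histone-fold proteins that pair with each other on centromeric DNA, and CENP-T carries the tail that binds Spc24 and Spc25. Cenpw read 35.4 in D351 and 77.9 in D16, or 2.20-fold lower (log2 -1.14), on a probe set with the ending _i, which marks an incomplete probe design. Cenpt read 83.4 in D351 and 115.1 in D16, or 1.38-fold lower (log2 -0.46), the smallest difference of the 10. In the Ndc80 complex, Spc25 had the largest difference of the 10, with 43.7 in D351 and 139.1 in D16, or 3.18-fold lower (log2 -1.67). Its direct partner Spc24 read 26.2 in D351 and 43.5 in D16, or 1.66-fold lower (log2 -0.73).

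**Figure D1:**
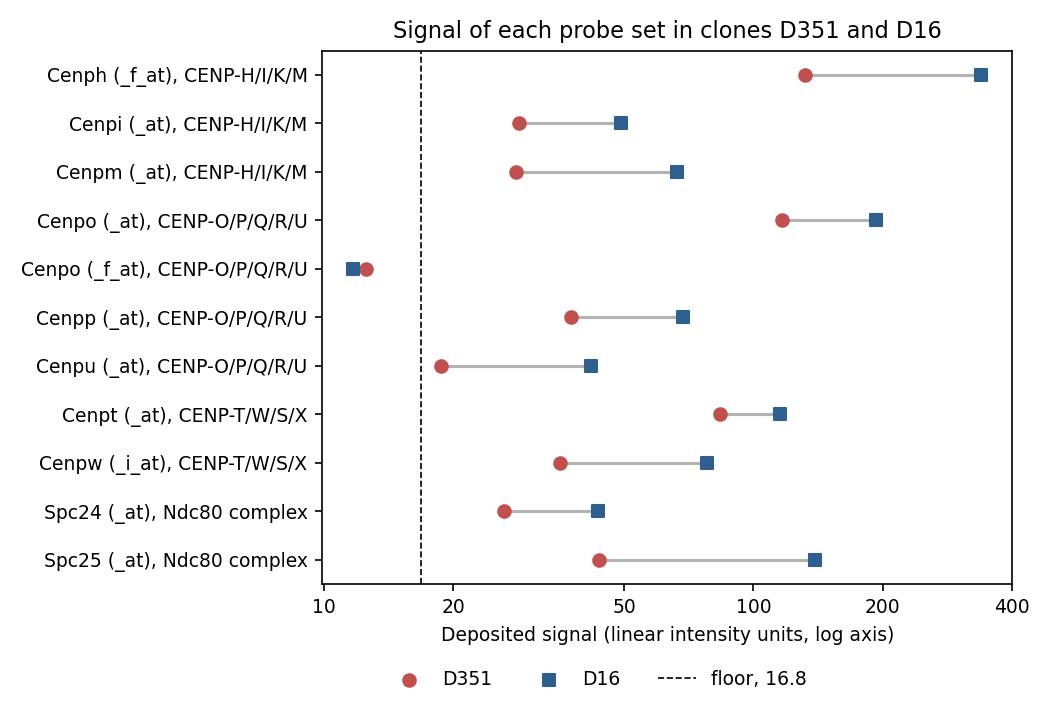
Deposited signal (linear intensity units, log axis) of the 11 probe sets in D351 (circles) and D16 (squares), ordered by complex, with the floor of 16.8 dashed. In 10 probe sets D351 lies left of D16 and both lie above the floor, and the _f probe set of Cenpo lies under it in both clones. After scaling on hybridisation controls Cenpt would lie slightly to the other side (log2 0.06).

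Partners in the same assembly were not closer to each other than members of different assemblies. Over the 8 pairs of members within an assembly the ratios differed by a median of 0.44 on the log2 scale (0.12 to 0.94), and over the 37 pairs across assemblies by 0.40 (0.01 to 1.21). A measure of how far probe sets of the same gene can differ comes from 1113 genes with at least 2 probe sets that gave a ratio, bounds included. In these genes the ratios of the 2 brightest differed with an SD of 0.71. The members' own ratios are not bounds, so this SD is a rough guide for them. Of the 8 pairs within an assembly only Spc24 with Spc25 (0.94) differed by more than that SD, and Cenpt with Cenpw came next (0.67). Across assemblies 6 of 37 pairs did. Differences of more than 1 SD also occur between probe sets of the same gene, so no order of the subunits within a complex can be read from these arrays. The probe set SD covers design, signal noise and the effect of the floor, and not culture, since both probe sets of a gene share the same arrays.

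Set among all genes, Spc25 had a ratio under which 2.48% of the measured genes lay. For Cenph this share was 4.29%, for Cenpm 5.14%, for Cenpu 5.95% and for Cenpw 6.18%. The members that were not past 2-fold lay at 11.2% (Cenpp), 13.3% (Cenpi), 15.2% (Spc24), 15.5% (Cenpo) and 25.2% (Cenpt). All 10 thus lay in the lower part of the distribution, and no member stood at its far end. The dimmest members (Cenpu, Spc24 and Cenpi) and the brightest (Cenph) were on the same side.

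**Figure D2:**
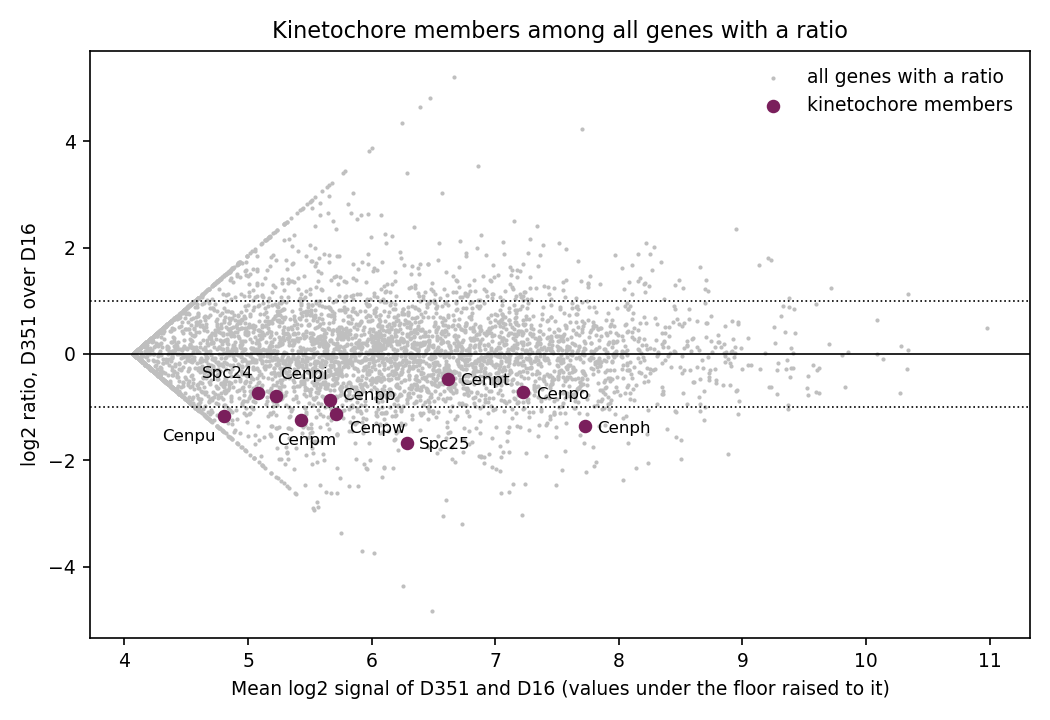
Log2 ratio of D351 over D16 against the mean log2 signal of both arrays for 4922 genes (grey) and the 10 kinetochore members (purple), with 2-fold at the dotted lines and the median of all genes as a solid line. All 10 members lie below the solid line at dim and bright signals alike, from Spc25 at -1.67 to Cenpt at -0.46. With hybridisation control scaling Cenpt moved to 0.06, and the median of all genes to 0.45.

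The 10 genes lie on 8 chromosomes, and the 10 measured genes nearest to each had median log2 ratios from -0.27 (Spc25) to 1.02 (Cenpw). Cenpw lies on chromosome 10, where the 249 other measured genes had a median log2 ratio of 0.35, and Cenpi on the X chromosome, where 139 others had a median of 0.40. Both genes were thus lower in D351 on chromosomes whose genes were mostly higher there. Relative to its chromosome Cenpi stood at -1.18 and Cenpw at -1.49. Spc24 lies on chromosome 9 (median of 277 others 0.17). The remaining members lie on chromosomes 2 (Spc25), 8 (Cenpt and Cenpu), 12 (Cenpo), 13 (Cenph and Cenpp) and 15 (Cenpm), with medians between -0.12 and -0.05. With the chromosome median taken off, all 10 members stayed below 0, with a median of -1.14, and 6 were at least 2-fold lower, against 7.84% of all genes.

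Motif letters could be searched in the promoter windows of 9 members, from 250 bases before to 50 bases after the start. A CCAAT box stood in 6 of 9, against 37.4% of 32851 promoter windows of the same length. It was found in 5 of 5 members past 2-fold and in 1 of 4 that were not (Cenpi, at position 8 after the start). Spc25 holds 2 before its start, at -55 and -23, Cenpm 2, at -172 and -131, Cenpw 1 at -29 and Cenpu 1 on the other strand at -47, while the match of Cenph lies at 32 after the start. CHR letters stood in 3 of 9 windows (Spc25, Cenpm and Cenpw), against 19.2% of all. In Cenpw the CHR starts at -25 on the other strand and shares 1 base with the CCAAT box, in Cenpm it starts at -83, and in Spc25 at 25 after the start. An E2F match was found in Cenpm alone (at -71), against 1.84% of all windows. Cenpt, Cenpo and Cenpp hold none of these letters in this window. The motifs were chosen with the ratios known, and a match of letters describes the sequence and does not show that a factor binds there. The split of members at 2-fold also depends on the processing. With hybridisation control scaling only Spc25 is past it, and with chromosome medians taken off Cenpi (-1.18) is past it as well.

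**Figure D3:**
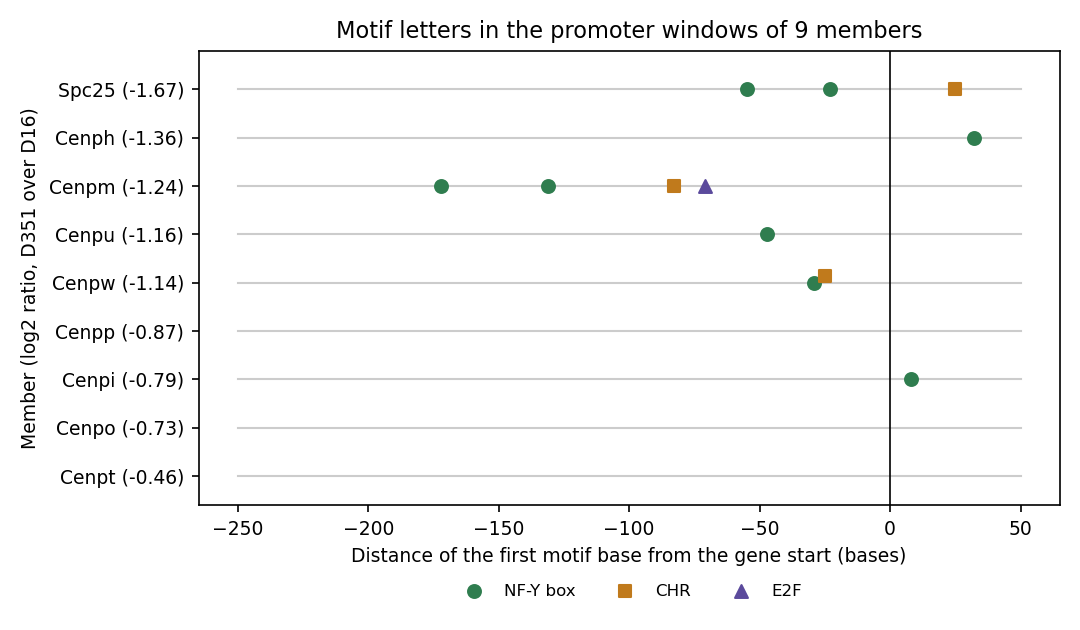
Distance in bases of each motif's first base from the gene start for 9 members, ordered by log2 ratio of D351 over D16 (in brackets) from Spc25 at the top to Cenpt, with CCAAT boxes (NF-Y) as circles, CHR letters as squares and the E2F match as a triangle. The 5 upper rows, past 2-fold, each carry a circle, and of the 4 lower rows Cenpi does. With hybridisation control scaling the ratio of Cenpt was 0.06.

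Other kinetochore and checkpoint genes were taken from a list of 54. Members and list were chosen with these ratios known, so how uniform each is was not tested. Of the 54, 22 were on the array and 19 had a ratio, with a median log2 ratio of -0.48 (1.39-fold lower in D351). In this list 13 lay below 0 (50.7% of all genes did) and 6 above. At least 2-fold lower in D351 were 4 (8.57% of all genes), and 1 passed 2-fold towards D351 (9.49% of all genes). Of 7 genes for CENP-A, its loading and its direct readers, 0 had a named probe set here.

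Further subunits of the centromere network were dim. Itgb3bp, which encodes CENP-R, read 11.7 in D351 and 46.5 in D16, at least 2.77-fold lower in D351. Cenps, whose protein belongs with CENP-T and CENP-W, read 11.0 in D351 and 22.0 in D16, at least 1.31-fold lower. Both lie on chromosome 4, whose measured genes had a median log2 ratio of -0.34. Cenpq read 7.3 in D351 and 16.7 in D16, under the floor in both.

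Nuf2, the partner of Ndc80 at the microtubule end, read 40.5 in D351 and 61.4 in D16, or 1.52-fold lower, beside 1.66-fold for Spc24 and 3.18-fold for Spc25. Dsn1, of the Mis12 complex that also binds Spc24 and Spc25, read 132.2 in D351 and 261.0 in D16, or 1.97-fold lower, on an _i probe set. Mis12 itself differed little on an _f probe set, with 45.2 in D351 and 52.3 in D16 (log2 -0.21). Zwint, a partner of Knl1, lay on the other side, with log2 ratios of 0.13 and 0.46 on its probe sets. It lies on chromosome 10 like Cenpw, and with the chromosome median taken off its ratio was -0.22. Nsl1 was under the floor in both clones, with 0.4 in D351 and 0.5 in D16.

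Proteins that bind kinetochores in mitosis split in direction. Kntc1, of the Rod-Zw10-Zwilch complex, read 20.2 in D351 and 79.5 in D16, or 3.94-fold lower, and the motor Cenpe was 3.63-fold lower. Cenpf, a large corona protein, read 77.3 in D351 and 150.8 in D16, or 1.95-fold lower, and Ska2, of the microtubule-binding Ska complex, 50.5 in D351 and 86.7 in D16, or 1.72-fold lower (at least 1.40-fold on another probe set). Ndel1, a dynein regulator that also acts outside mitosis, read 49.9 in D351 and 21.8 in D16, or 2.29-fold higher. The plus-end proteins Clip1 (log2 0.99) and Clasp2 (0.49) lay above 0 and Clasp1 at -0.02, while Nde1 was under the floor in both. These microtubule and dynein regulators have known roles in cells that are not dividing. Whether those roles bear on their direction here was not tested.

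In the spindle checkpoint Bub1b was 4.48-fold lower in D351. Mad1l1, which brings Mad2 to kinetochores, read 105.0 in D351 and 198.5 in D16, or 1.89-fold lower, and Bub3, the partner of Bub1 and Bub1b, read 38.3 in D351 and 27.1 in D16 (log2 0.50). Incenp, of the chromosomal passenger complex, had log2 ratios of 0.28 and -0.35 on its probe sets, and Sgo2a, a protector of centromeric cohesion, was at least 1.39-fold lower.

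Proliferation markers were lower in D351 as well. Of 45 listed, 9 were on the array and 7 had a ratio, with a median log2 ratio of -1.75, and 7 of 7 lay below 0 (50.7% of all genes) and 5 were at least 2-fold lower (8.57%). They included the condensin subunit Ncapg (log2 -2.48), the phosphatase Cdc25b (-1.80), the helicase subunit Gins1 (at most -1.76), the transcription factor Foxm1 (-1.75) and the spindle assembly factor Tpx2 (-1.17, and -1.32 on another probe set). In a list of cell cycle repressors, quiescence genes and E2F genes, not all of them repressors, 7 of 28 had a ratio, with a median of -0.42. Lin54, the MuvB subunit that binds CHR letters, read 50.5 in D351 and 90.3 in D16, or 1.79-fold lower, and E2f7, a repressor made in proliferating cells, 37.4 in D351 and 78.7 in D16, or 2.10-fold lower. Lin37 (-0.42), another MuvB subunit, E2f4 (-0.51) and E2f3 (-0.13) lay below 0, while Btg1 (0.49) and Gas2 (0.10) lay above it. In this list 5 of 7 were thus below 0 (50.7% of all genes) and 2 above, and 1 was at least 2-fold lower (8.57%). In a bulk culture, fewer dividing cells and less transcript per cell cannot be told apart.

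**Figure D4:**
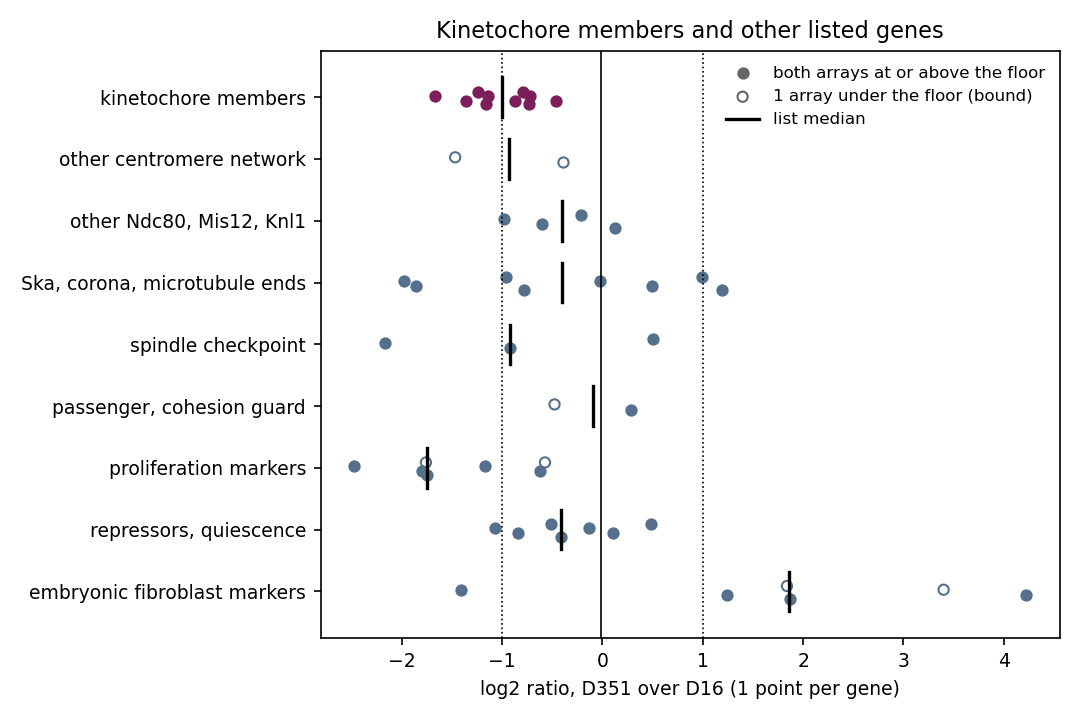
Log2 ratio of D351 over D16 for each measured gene of the 10 kinetochore members (purple) and of other lists (blue), with bounds as open circles, list medians as bars, 2-fold at the dotted lines and the median of all genes as a solid line. The members lie together between -1.67 and -0.46, the corona and checkpoint lists spread to both sides, and 5 of 6 embryonic fibroblast markers lie above 1. With hybridisation control scaling Cenpt moved to 0.06.

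Cell type markers were few on this array. Of 19 mesoangioblast markers 5 were present, of which Cd44 was bright in both clones (1092.5 in D351 and 1164.5 in D16), Cspg4 and Gata4 were higher in D16, and Eng was under the floor in both. Markers of embryonic fibroblasts, the feeder cells of the cloning step, moved the other way from the kinetochore genes. Of the 6 with a ratio, 5 passed 2-fold towards D351 (9.49% of all genes did). The 6 signals summed to 2454.2 in D351 and 997.2 in D16, and Tcf4 alone gave 205.6 in D351 and 544.8 in D16. No marker was at 0, as is true of nearly every probe set, and Aspn (3.6) and Col5a2 (12.4) were under the floor in D16. The 5 were Sfrp1, Aspn, Prrx1, Col5a2 and Cd248, and Tcf4 was 2.65-fold lower. Their part in the kinetochore difference was not tested. Of 14 endothelial and blood markers Flt1 (at least 2.65-fold higher in D351) and Runx1 (1.35-fold higher) had a ratio.

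The common scale of the arrays sets the size of these ratios. Both columns had a mean of 40.0 after 2% was trimmed at each end, whereas 9 hybridisation control probe sets (BioB, BioC, BioDn and CreX) had a median 1.44-fold higher in D16. Scaled on these controls, the median of all genes moved by 0.46 and the median of the 10 members became -0.48, with 9 of 10 below 0 and 1 (Spc25, log2 -1.15) at least 2-fold lower, while the share of all genes at least 2-fold lower became 3.28%. Relative to the median of all genes the members then stood at -0.93, against -0.99 as deposited. With a floor at the 75th percentile (53.5), 7 members kept a ratio, with a median of -0.54, and 2 were at least 2-fold lower, against 6.35% of all genes. The ratios of Cenpm, Cenpp, Cenpw and Spc25 were then bounds, since their D351 signals lay under that floor.

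**Figure D5:**
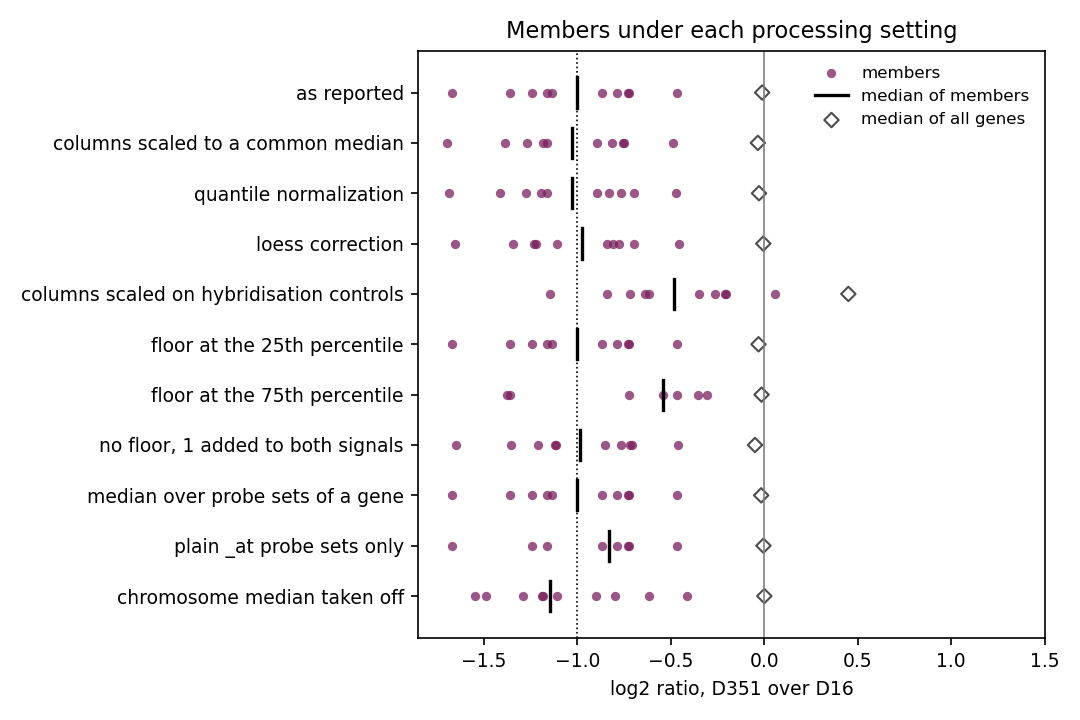
Log2 ratio of D351 over D16 for each member with a ratio (points), their median (bars) and the median of all genes (diamonds) under the values as reported and 10 other settings. Members lie below 0 under each setting except Cenpt with hybridisation control scaling (0.06), and the bar minus the diamond ranges from -0.53 with the higher floor to -1.14 with chromosome medians taken off.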

How the data were processed

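Expression was measured on MG-U74B arrays, 1 per clone. The authors deposited 1 intensity per probe set, in linear units; the software, background correction and presence calls are not given in the sources used here. Of 12477 probe sets, 66 were controls. Probe sets were named by the platform annotation kept by GEO, with gene identifiers matched to RefSeq names of GRCm38.p6 (10572 of 10581 with 1 symbol; 178 had several symbols and 1652 were unnamed here). No array coordinates were used.

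Signals under the pooled 50th percentile (16.8) were raised to it, the log2 ratio of D351 over D16 was taken, and a gene was represented by its brightest probe set (mean of both arrays). Where 1 array lay under the floor the ratio is a bound, and with both under it none was given. With 1 array per clone no p-value or SE was computed, and the number of arrays limits the precision. The code was tested on simulated data.

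Members and lists were chosen with earlier results of these data known. The genes named were all 10 members, every measured gene of the other kinetochore lists, and up to 6 genes past 2-fold of the remaining lists; Lin54, Lin37, E2f4, E2f3, Btg1, Gas2, Cd44, Eng and Runx1 were named after their values were seen. Promoters of 9 members matched the RefSeq table, and 6 are printed, without the bases after the start. Alternatives were other scalings, floors, probe set rules and size rules. Python 3.11.15, numpy 2.4.6, pandas 2.3.3, statsmodels 0.14.6 and matplotlib 3.10.9 were used.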

Additional observations from a re-analysis of the deposited data

How the results depend on the processing

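The direction of the 10 members was kept under 10 other settings, except for Cenpt with hybridisation control scaling (log2 0.06). Their median (-1.00) moved by more than 0.1 with hybridisation control scaling (-0.48), the floor at the 75th percentile (-0.54), plain _at probe sets only (-0.83, 8 members) and chromosome medians taken off (-1.14). The 5 members at least 2-fold lower became 1 with control scaling (3.28% of all genes), 2 with the higher floor (6.35%) and 3 with plain probe sets (8.71%). They became 9 at a size rule of 1.5-fold (20.4% of all genes) and 1 at 3-fold (2.78%). By construction the higher floor and the plain probe sets leave out members. The higher floor also raises the D351 signals of Cenpm, Cenpp, Cenpw and Spc25, so their ratios there are bounds (Cenpm -0.31). Control scaling multiplies each array by a constant and so moves every member by the same amount. Chromosome medians are subtracted from each ratio. Why the controls differed between the arrays was not tested. Of 95 values of single members under other settings, 19 moved by more than 0.1 and 0 past 2-fold changed sign.

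The same settings were added for the other lists after the data were seen. For the other kinetochore and checkpoint genes the median (-0.48) was -0.13 with control scaling, -0.90 with the floor at the 25th percentile, -0.79 with no floor and 1 added to both signals, and -0.58 with chromosome medians taken off. Their count at least 2-fold lower (4) was 7 with the lower floor, 2 with the higher floor and 9 at 1.5-fold, and the count at least 2-fold higher (1) was 2 with loess correction, 4 with control scaling, 0 with the higher floor and 2 with chromosome medians taken off. For the proliferation markers the median (-1.75) was -1.23 with control scaling, -1.54 with the lower floor, -1.24 with the higher floor, -1.25 with no floor and -1.64 with chromosome medians taken off.

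No paired analysis was possible because each clone has 1 array and no test was run. Spread between cultures is unknown, and signals near the floor, such as Cenpu in D351, limit the ratios.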

Other observations

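Cenpp shares its locus with genes of extracellular matrix. In the RefSeq annotation of GRCm38.p6 the span of Cenpp contains Ecm2, Aspn, Omd and Ogn, which run on the other strand and encode small leucine-rich or matrix proteins. Aspn, inside that span, read 177.4 in D351 and 3.6 in D16, at least 10.6-fold higher in D351, while Cenpp was 1.83-fold lower there. Ippk, an inositol phosphate kinase gene that overlaps Cenpp in part, read 45.1 in D351 and 66.2 in D16, or 1.47-fold lower. Ecm2 was under the floor in both clones, and Omd and Ogn had no probe set with exactly 1 gene symbol here. Of these enclosed genes Aspn alone gave a ratio. Host and enclosed gene thus lay on opposite sides within 1 locus of these 2 arrays, without a replicate.

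Cenpo overlaps Ptrhd1 in part, which read 462.6 in D351 and 562.3 in D16 on an _r probe set (log2 -0.28), less far from 0 than Cenpo (-0.73).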
